A study of Rattus norvegicus with 24 samples.

Results

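miR-223 is a microRNA of blood cells, and its level was followed in peripheral blood mononuclear cells (PBMC) of healthy and arthritic rats. It was the only miRNA whose name on the array was exactly rno-miR-223, that is 1 of the 677 rat miRNAs measured. All animals were female Wistar rats, and their age is not given in the sources used here. Collagen-induced arthritis (CIA) is a model of rheumatoid arthritis raised with bovine type II collagen in adjuvant. Healthy rats that had no arthritis induced (NOCIA) were sampled before therapy, at 1 hour and at 34 days, and CIA rats were sampled before any therapy. CIA rats under treatment were sampled at 1 hour and at 34 days in 4 arms. The MS arm received mechanical stimulation with a subcutaneous needle that was twirled, the MTX arm weekly peritoneal methotrexate, the PLA arm peritoneal saline as the placebo of methotrexate, and the ANE arm isoflurane in place of the ether used at blood sampling in MS, MTX and PLA, with no other therapy. Total blood was drawn and the rats were then killed, so the times compare different animals. The labels write AP for MS, NORA for NOCIA and RA for CIA before therapy. In the labels of NOCIA at 34 days, 1 line of description names 1 hour, while the title and the other line name 34 days, and 34 days was used. There were 12 groups with 2 arrays each. Nothing states whether an array held the RNA of 1 animal or of several, so p-values measure the spread between these samples.

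A miRNA is a short RNA that lowers the output of messenger RNAs by pairing with them, mainly through its seed, bases 2 to 8 from the 5′ end. miR-223 is known for the myeloid lineage: granulocytes and monocytes carry much of it and lymphocytes little. PU.1 and C/EBP alpha, transcription factors of myeloid differentiation, switch its gene on, and in mice without it neutrophils are more numerous and more reactive. It is also carried by platelets. PBMC are taken from a density gradient that leaves most granulocytes behind, so the monocytes are the main myeloid cells of such a preparation. In such a mixed sample, fewer cells of a type and less RNA per cell cannot be told apart.

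The RefSeq tables for the rat build GRCr8 hold both arms of the miR-223 hairpin. The 2 mature sequences are shown because the array measured both arms and detected only 1 of them, with the seeds in capitals:
rno-miR-223-3p: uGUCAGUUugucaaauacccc
rno-miR-223-5p: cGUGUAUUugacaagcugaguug

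The 3p arm has 21 bases and the 5p arm 23. The 3p arm lies at chrX:65151450-65151470 and the 5p arm at chrX:65151408-65151430, both on the plus strand. The gene lies within a long non-coding RNA gene of the same strand, LOC120099372, at chrX:65147471-65152204. The nearest protein-coding gene is Vsig4, a complement receptor of tissue macrophages, whose annotated end lies 2930 bases away on the minus strand. Of 724 mature rat miRNA entries in the table, 0 others had the seed of the 3p arm and 0 others that of the 5p arm. The array's name rno-miR-223 is the older name of the 3p arm, and rno-miR-223* that of the 5p arm.

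Each array carried 20 spots for miR-223, 10 for each of 2 probes. All 480 spots over the 24 arrays were well above background and none was saturated, and miR-223 was detected on all 24 arrays. The passenger strand miR-223* was detected on 0 of 24 arrays. Its total intensity was listed between 2.93 and 4.98, values that equal the software's own error and give no level. The guide strand was thus measured everywhere and the passenger strand nowhere.

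An array detected 145 to 207 of the 677 miRNAs, and their intensities added up to 137544 on the dimmest array and 519917 on the brightest. The pan-leukocyte miRNAs miR-142-3p and miR-142-5p were detected on all 24 arrays, and leukocytes of all kinds carry them. Also detected on all 24 arrays were the erythroid markers miR-451 and miR-144, the lymphocyte markers miR-150, miR-342-3p and miR-181a to miR-181d, and the platelet miR-126. The arrays lay on 3 slides of 8, and each group lay on 1 slide. Slide 1 held ANE at 1 hour and MS, MTX and PLA at 34 days. Slide 2 held CIA and NOCIA before therapy and NOCIA and ANE at 34 days. Slide 3 held NOCIA, MS, MTX and PLA at 1 hour.

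The total intensity of miR-223 as deposited, before any scaling between arrays, was 4439 and 5104 in NOCIA before therapy, 4314 and 5154 in NOCIA at 1 hour, and 8124 and 9070 in NOCIA at 34 days. In CIA before therapy it was 3588 and 5182. At 1 hour it was 14851 and 5315 in MS, 6556 and 4156 in MTX, 10173 and 15125 in ANE, and 5766 and 9930 in PLA. The lowest array was thus one of CIA before therapy, and the 2 replicates of MS at 1 hour lay far apart. At 34 days it was 26689 and 12561 in MS, 15171 and 6238 in MTX, 7568 and 4678 in ANE, and 6442 and 6970 in PLA. The brightest array of all was replicate 1 of MS at 34 days, which also had the highest summed intensity. From the lowest to the highest array the unscaled intensity spanned 7.44-fold. Once each array was scaled to the same 75th percentile over the 132 miRNAs detected on every array, the span was 2.65-fold, or 1.40 on the log2 scale.

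**Figure D1:**
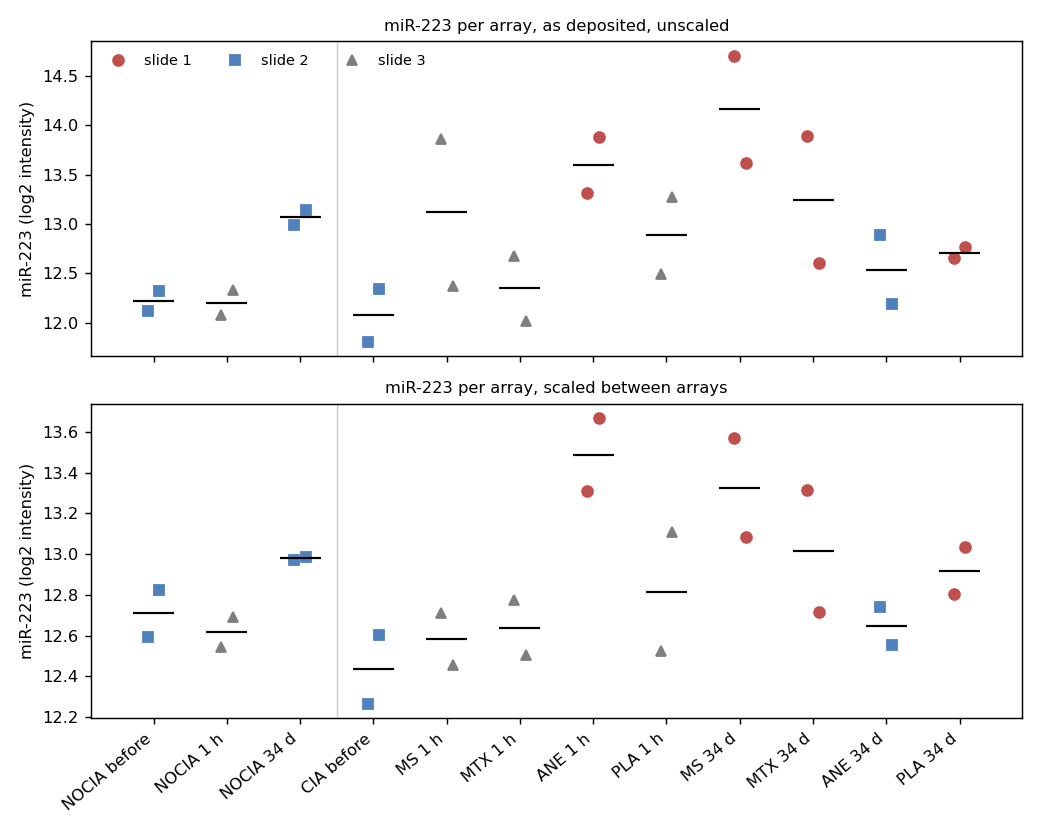
miR-223 on each of the 24 arrays, as log2 of the total intensity before (top) and after (bottom) scaling between arrays. Each point is 1 array, its shape and colour give the slide, and the horizontal lines are the means of the 2 arrays of a group. After scaling, 6 of the 8 highest arrays are those of slide 1.

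On the scaled log2 scale, ANE at 1 hour had the highest mean level of miR-223, 13.49 ± 0.25 (SD, n = 2), with arrays at 13.31 and 13.67. MS at 34 days followed with 13.33 ± 0.34 (arrays at 13.57 and 13.08) and MTX at 34 days with 13.01 ± 0.43 (13.32 and 12.71). These groups all lay on slide 1. NOCIA at 34 days stood at 12.98 ± 0.01 (12.97 and 12.98), PLA at 34 days at 12.92 ± 0.17 (12.80 and 13.04) and PLA at 1 hour at 12.82 ± 0.41 (12.52 and 13.11). NOCIA before therapy stood at 12.71 ± 0.16 (12.59 and 12.83), ANE at 34 days at 12.65 ± 0.13 (12.74 and 12.55) and MTX at 1 hour at 12.64 ± 0.19 (12.77 and 12.50). The middle of the order was close together, and healthy and arthritic groups were mixed in it. NOCIA at 1 hour stood at 12.62 ± 0.11 (12.54 and 12.69) and MS at 1 hour at 12.58 ± 0.18 (12.71 and 12.45). CIA before therapy had the lowest level, 12.43 ± 0.24 (12.26 and 12.60).

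In all 11 pairs of neighbours in this order the arrays of the 2 groups overlapped, and the widest gap between neighbouring means, 0.31 from MS to MTX at 34 days, was the only one above the shared spread within groups (SD 0.25). The order is one of overlapping neighbours, while the arrays of its highest and lowest groups did not overlap. These were picked as the extremes of 12 sorted means, so their separation is no test of a difference. ANE at 1 hour and MS at 34 days were the 2 highest groups under all 11 ways of computing the level, and CIA before therapy was the lowest under 10 of them. The exception was scaling to the 75th percentile over all miRNAs, under which PLA at 1 hour was lowest. The test of any difference among the 12 groups (limma's moderated F) gave F = 3.19 and an adjusted p of 0.286 for miR-223, and 5 of the 210 miRNAs tested (2.38%) passed it.

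The slides differed along with the groups. miR-223 had a median of 13.20 over the 8 arrays of slide 1 (lowest 12.71, highest 13.67), 12.67 on slide 2 (12.26 to 12.98) and 12.62 on slide 3 (12.45 to 13.11). Slide 1 held 4 of the 5 highest groups. Group and slide cannot be told apart in any comparison made across slides. The 23 comparisons of 2 groups were chosen for the design and leave out some pairs of groups on the same slide. Of the 23, 10 were made within a slide, and there the largest difference was 0.41 and 0 had an unadjusted p under 0.05. Of the 13 made across slides, 5 had an unadjusted p under 0.05, and in all 5 the group on slide 1 was the higher. Left out and not tested were, on slide 1, ANE at 1 hour (mean 13.49) against PLA at 34 days (12.92). On slide 2, NOCIA at 34 days (12.98) against CIA before therapy (12.43) was likewise not tested. The 0 among the 10 within slides held under the scaling used here and not under every alternative. With single arrays left out, the difference of MS from MTX at 34 days ranged from 0.01 to 0.61 and that of MS from PLA from 0.16 to 0.65. MS against PLA at 34 days, within slide 1, had an unadjusted p of 0.0156 without scaling, 0.0183 in the authors' log2 table and 0.0199 with normexp, and ANE against NOCIA at 34 days, within slide 2, one of 0.0424 under the 75th percentile over all miRNAs and 0.0382 with the compared arrays alone.

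The 2 probes of miR-223 followed each other over the arrays. The array holds probes A_26_P00001510 and A_26_P00001511 for it, and the mean spot intensity ran from 1865 to 14340 for the former and from 3444 to 24540 for the latter. The log2 ratio of the latter to the former was 0.76 ± 0.09 (SD over 24 arrays) and ran from 0.49 to 0.89. The coefficient of variation among the 10 spots of a probe on an array had a median of 10.5% and ran from 3.94% to 25.5%. The spread between the probes' ratios over arrays (0.09) was below the spread of miR-223 between replicate arrays of a group (0.25).

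**Figure D2:**
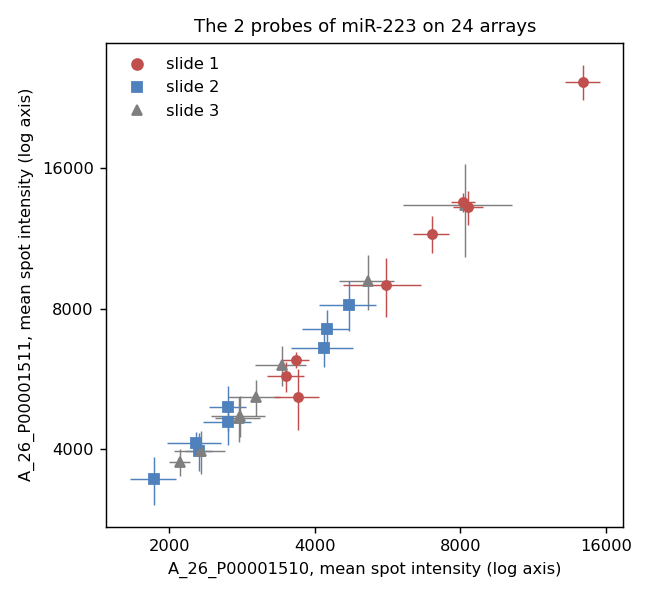
Mean intensity of the 10 spots of each miR-223 probe on each of the 24 arrays, both axes logarithmic; bars are the SD over the 10 spots, and shape and colour give the slide. The probes rise together from the lowest array (1865 and 3444) to the highest (14340 and 24540).

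Arthritis itself was addressed by CIA against NOCIA, both before therapy. miR-223 was at 12.26 and 12.60 in CIA and at 12.59 and 12.83 in NOCIA, so the arrays overlapped. The difference was -0.28 (log2, SE 0.25, limma adjusted p 0.938), and its 95% interval ran from -0.81 to 0.26. Of the 210 miRNAs, 2 (0.952%) were called there. Both groups lay on slide 2.

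All arthritic arrays, whatever their treatment, were also set against all healthy arrays within the 2 slides that held both. Over slides 2 and 3 the 10 arthritic arrays had a lowest level of 12.26, a median of 12.58 and a highest level of 13.11, and the 6 healthy arrays 12.54, 12.76 and 12.98. Arthritic minus healthy was -0.15 on average within slides, with a two-sided exact permutation p of 0.235 over 1960 arrangements. Single arrays were exchanged, although the 2 arrays of a group shared treatment and time. The permutation p-values therefore do not measure the spread between groups. On slide 2 alone the difference was -0.30 (exact permutation p 0.0857, where the smallest possible is 0.0286), and on slide 3 alone it was 0.06 (exact permutation p 0.786, where the smallest possible is 0.0357). The estimate was negative on slide 2 and near 0 on slide 3. The slides held different arms and times, and a difference between them was not tested.

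The early response to each treatment was addressed by comparing 1 hour with CIA before therapy. In ANE at 1 hour miR-223 was higher than in CIA before therapy by 1.06 (SE 0.25), a fold of 2.08 with a 95% interval from 1.43 to 3.01, and both ANE arrays lay above both CIA arrays. The unadjusted p was 0.000878, the second smallest of the 210 miRNAs in this comparison, and the adjusted p was 0.0922, so it was not called. Of the 210 miRNAs 1 (0.476%) was called there, and 38 (18.1%) had an unadjusted p under 0.05. MS, MTX and PLA at 1 hour differed from CIA before therapy by 0.15, 0.20 and 0.38 (SE 0.25 each), with adjusted p of 0.840, 1 and 0.584, and the arrays of all 3 overlapped those of CIA. In these comparisons 0, 3 (1.43%) and 2 (0.952%) of the 210 miRNAs were called, and in MS at 1 hour, with no call, 27 had an unadjusted p under 0.05. Healthy rats at 1 hour differed from NOCIA before therapy by -0.09 (SE 0.25, adjusted p 0.995), where 5 of 210 (2.38%) were called. These comparisons all crossed slides.

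Of the markers of other cells, 1 was called in ANE at 1 hour against CIA before therapy. This was miR-122, the abundant miRNA of liver cells, at 8.96 and 5.43 in ANE at 1 hour against 2.53 and 2.69 in CIA before therapy, where it was at or near the floor. It was also at 7.73 and 7.76 in NOCIA before therapy, where miR-223 was in the middle of its order. Of the 2 erythroid and 6 lymphocyte markers 0 were called by limma, with 0 and 4 at an unadjusted p under 0.05. The erythroid markers, miR-451 and miR-144, had overlapping summed levels, 11.21 to 13.93 in ANE at 1 hour and 12.07 to 14.72 in CIA before therapy. That of the 6 lymphocyte markers was 12.73 to 12.88 against 13.79 to 13.92, with differences in both directions, such as 0.72 for miR-181c and -1.22 for miR-150. The platelet miR-126 was at 6.91 ± 0.49 in ANE at 1 hour and 5.98 ± 0.12 in CIA before therapy (SD, n = 2). It differed by 0.93 (SE 0.47, limma adjusted p 0.269), in the direction of miR-223. The part of these cells and of the slide in the difference of miR-223 was not tested.

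The late response was addressed by comparing 34 days with CIA before therapy. miR-223 rose in MS at 34 days, with arrays at 13.57 and 13.08 against 12.26 and 12.60 in CIA before therapy. The difference was 0.89 (SE 0.25), a fold of 1.86 with a 95% interval from 1.28 to 2.69, with a limma adjusted p of 0.0383. It was the only one of the 24 comparisons in which miR-223 was called. In this comparison 40 of 210 miRNAs (19.0%) were called, 33 of them (15.7%) higher and 7 (3.33%) lower, and 102 (48.6%) had an unadjusted p under 0.05. miR-223 was 14th by p-value. The number called over all miRNAs depended on the scaling. It was 132 without scaling, 7 after quantile normalization and 0 after scaling to the median, to the sum or to the 75th percentile over all miRNAs, where 103, 100 and 51 still had an unadjusted p under 0.05. Its difference was smaller and its p-value larger (0.00311) than in ANE at 1 hour, but the adjustment depends on how many other miRNAs changed in the same comparison.

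This call depended on the arrays and on the processing. Over 20 alternatives the difference stayed positive in all 20 and was called in 10. Without replicate 1 of MS at 34 days, the brightest array, the difference was 0.65 (adjusted p 0.464), and without replicate 2 it was 1.14 (adjusted p 0.0132). Without replicate 1 or replicate 2 of CIA before therapy it was 0.72 (adjusted p 0.141) or 1.06 (adjusted p 0.115). It was made across slides 1 and 2. The median difference of all 210 miRNAs in the same comparison was 0.16 after scaling and 1.32 before it, where miR-223 differed by 2.09.

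**Figure D3:**
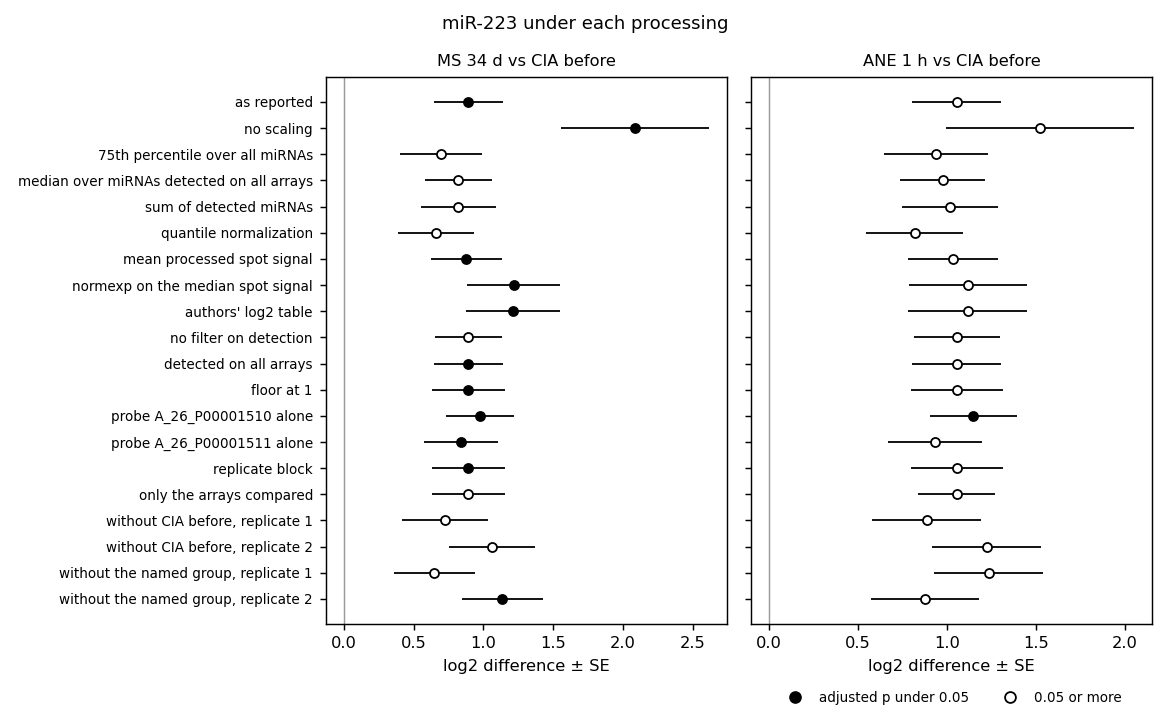
Difference of miR-223 from CIA before therapy (log2 ± SE) for MS at 34 days (left) and ANE at 1 hour (right) as reported and under 19 of the 20 alternatives; the remaining one changes only the threshold. Filled points have an adjusted p under 0.05; all points lie above 0, and those called are 11 on the left, the reported value among them, and 1 on the right.

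In the other arms at 34 days miR-223 was not called. In MTX, PLA and ANE 0 of the 210 miRNAs were called by limma, and 15, 4 and 6 had an unadjusted p under 0.05. In MTX it was higher than in CIA before therapy by 0.58 (SE 0.25, unadjusted p 0.0357, adjusted p 0.658), and in PLA by 0.49 (SE 0.25, adjusted p 1). In both arms the 2 arrays lay above both CIA arrays, and both comparisons crossed from slide 1 to slide 2. In ANE at 34 days, which shared slide 2 with CIA before therapy, the difference was 0.21 (SE 0.25, 95% interval -0.32 to 0.75, adjusted p 1) and the arrays overlapped. In NOCIA at 34 days both arrays lay above both arrays of NOCIA before therapy on the same slide, by 0.27 (SE 0.25, adjusted p 0.811), and 2 of 210 miRNAs (0.952%) were called. The late change in MS exceeded that in NOCIA by 0.62 (SE 0.35, 95% interval -0.13 to 1.38, adjusted p 0.465, with 1 of 210 miRNAs, 0.476%, called), so a difference between these changes was not shown.

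Comparisons between arms at the same time addressed the treatments apart from time, and all of them were made within 1 slide. At 34 days miR-223 was at 13.57 and 13.08 in MS and at 12.80 and 13.04 in PLA. Both MS arrays lay above both PLA arrays, by 0.41 on average (SE 0.25, 95% interval -0.13 to 0.94, adjusted p 0.220). This difference moved with the processing, from 0.18 under the 75th percentile over all miRNAs (adjusted p 0.713) to 0.90 in the authors' log2 table (adjusted p 0.0713) and 1.45 without scaling (adjusted p 0.0312). In MS against PLA at 34 days miR-223 was 119th of the 210 miRNAs by p-value. Of these, 84 (40%) had an unadjusted p under 0.05, and the median difference over all 210 was 0.21. MTX differed from PLA by 0.10 (SE 0.25, adjusted p 0.935) and MS from MTX by 0.31 (SE 0.25, adjusted p 0.464), with overlapping arrays. ANE at 34 days was below NOCIA at 34 days by a difference of -0.33 (SE 0.25, adjusted p 1), with both ANE arrays under both NOCIA arrays. At 1 hour MS and MTX differed from PLA by -0.23 and -0.18 (SE 0.25, adjusted p 0.824 and 0.884), and PLA from NOCIA by 0.20 (SE 0.25, adjusted p 0.990). The arrays overlapped in all of these at 1 hour. Limma called 2 of 210 miRNAs (0.952%) in MS against PLA at 1 hour and 0 in the other comparisons between arms at the same time, where 4 to 84 had an unadjusted p under 0.05.

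Within arms, 34 days was compared with 1 hour, always across slides. In MS miR-223 was higher at 34 days than at 1 hour (13.57 and 13.08 against 12.71 and 12.45) by 0.74 (SE 0.25, unadjusted p 0.0101, adjusted p 0.137). In ANE it was lower at 34 days than at 1 hour (12.74 and 12.55 against 13.31 and 13.67), by a difference of -0.84 (SE 0.25, unadjusted p 0.00459, adjusted p 0.193). In neither arm did the arrays of the 2 times overlap. MTX, PLA and NOCIA differed by 0.38, 0.10 and 0.36 (SE 0.25 each, adjusted p 0.792, 0.855 and 0.868), with 3 of 210 miRNAs (1.43%) called in each. Under the 75th percentile over all miRNAs, PLA and NOCIA differed by 1.09 (adjusted p 0.0628) and 1.04 (adjusted p 0.114). In MS and ANE limma called 0, and 51 and 15 had an unadjusted p under 0.05. In ANE no marker of another cell type was called between the times. The erythroid miR-451 and miR-144 had differences of 2.18 (SE 0.94) and 2.08 (SE 0.95), each with an adjusted p of 0.643, and miR-122 one of -3.97 (SE 0.81, adjusted p 0.0515). The part of these cells in the difference of miR-223 was not tested.

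**Figure D4:**
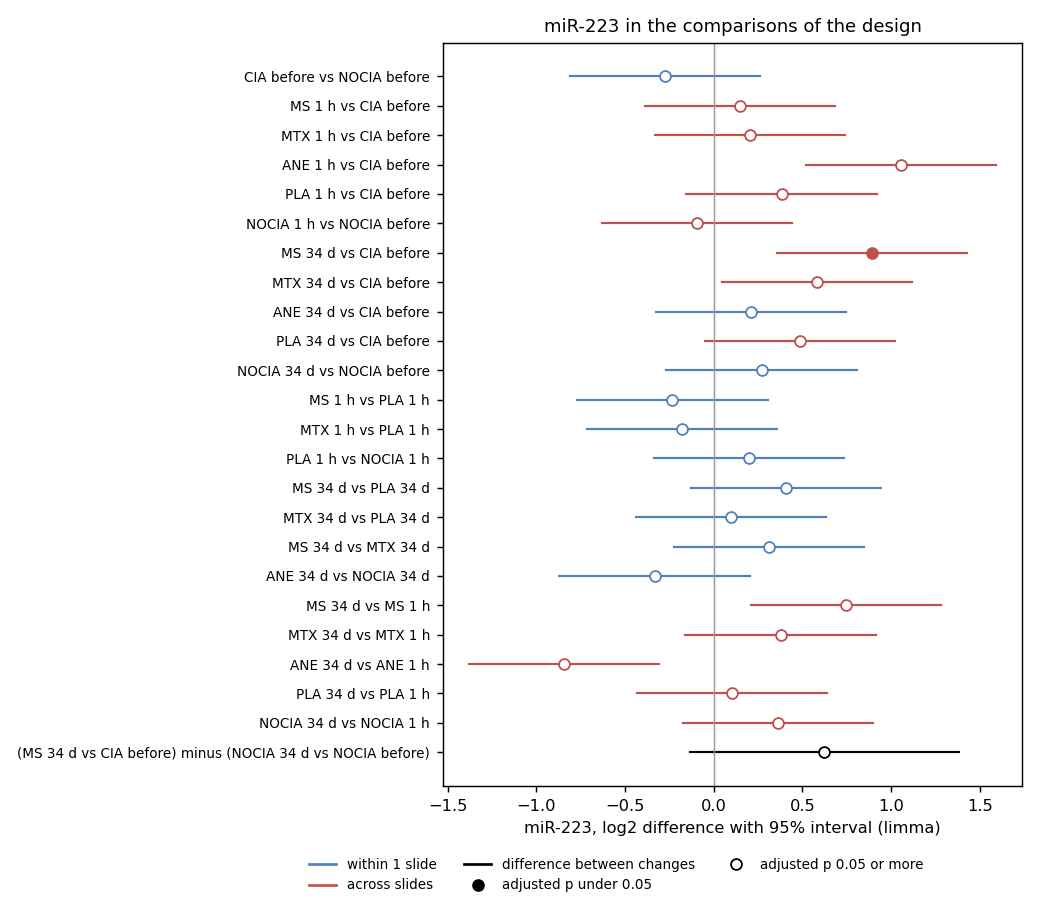
Differences of miR-223 (log2) with their 95% intervals from limma in the 24 comparisons; blue marks comparisons within 1 slide, red those across slides and black a difference between 2 changes. The filled point, MS at 34 days against CIA before therapy (0.89), is the only call, and under this scaling the intervals of all 10 comparisons within a slide include 0.

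Other miRNAs of the myeloid lineage and of its transcription factors were followed in MS at 34 days against CIA before therapy, the comparison in which miR-223 was called. Of the 3 miRNAs of the myeloid list, only miR-223 passed, although all 3 differences were positive: miR-143, at 8.87 ± 0.25 against 7.54 ± 0.01 (SD, n = 2), differed by 1.32 (SE 0.46, adjusted p 0.0526), and miR-145 by 0.36 (SE 0.28, adjusted p 0.333). miR-143 and miR-145 are also miRNAs of smooth muscle, and miR-145 was detected on only 5 of the 24 arrays. Of 12 miRNAs listed as controlled by PU.1 or C/EBP alpha, 10 were tested. Of the 10, 5 were called higher, miR-223 among them, and 0 lower, where 15.7% of all miRNAs tested were called higher. The comparison was picked for its call of miR-223, so that member's call was fixed in advance. The 10 were detected on all 24 arrays, while the 15.7% also covers miRNAs detected on fewer arrays. With only the 132 miRNAs detected on all arrays tested, 65 of the 132 were called in either direction. The count of 5 is therefore a description and not a result about the list. Under scaling to the median, to the sum or to the 75th percentile over all miRNAs, no miRNA was called. The median difference of the 10 was 0.70, against 0.16 over all 210. Besides miR-223, those called among the 10 were miR-338 with 1.61 (SE 0.51) and 3 miRNAs that share a gene cluster. The 3 were miR-23a with 0.83 (SE 0.26), miR-24 with 0.78 (SE 0.24) and miR-27a with 0.71 (SE 0.22). Their limma adjusted p, that of miR-338 included, was from 0.0406 to 0.0407. miR-146a, a brake on inflammatory signalling, and miR-342-3p differed the other way, by -1.52 (SE 0.53, adjusted p 0.0526) and -1.29 (SE 0.48, adjusted p 0.0549).

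In ANE at 1 hour against CIA before therapy, 0 of the same 10 miRNAs passed with limma and 4 had an unadjusted p under 0.05, namely miR-223, miR-23a and miR-24 with a positive difference and miR-342-3p with a negative one. Over all 210 miRNAs 0.476% were called and 18.1% had an unadjusted p under 0.05. The median difference of the 10 was 0.33, against 0.11 over all 210. miR-23a and miR-24 differed by 0.59 (SE 0.26) and 0.62 (SE 0.24), with an adjusted p of 0.263 each. miR-27a differed by 0.44 (SE 0.22, adjusted p 0.267). From the myeloid list, miR-143 and miR-145 differed by 0.99 (SE 0.46, adjusted p 0.263) and 0.51 (SE 0.28, adjusted p 0.299).

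Markers of lymphocytes, which carry little miR-223, were divided in MS at 34 days. Of the 6, miR-181c and miR-181d were called higher, by 1.06 (SE 0.30) and 1.16 (SE 0.32), each with a limma adjusted p of 0.0383. The rest had negative differences, and 0 were called lower. Of all miRNAs tested, 15.7% were called higher and 3.33% lower. As given above, no miRNA at all was called in this comparison under 3 of the other scalings. The median of the 6 differences was -0.72. miR-150, a miRNA of mature lymphocytes, differed by -2.43 (SE 0.89, adjusted p 0.0549) and miR-342-3p by -1.29 (SE 0.48, adjusted p 0.0549). miR-181a and miR-181b differed by -0.80 (SE 0.38, adjusted p 0.111) and -0.65 (SE 0.26, adjusted p 0.0712). The summed level of the 6 was 11.53 to 12.98 in MS at 34 days and 13.79 to 13.92 in CIA before therapy. The 2 pan-leukocyte miRNAs had a median difference of -0.03 and opposite signs, 0.12 (SE 0.20) for miR-142-3p and -0.19 (SE 0.39) for miR-142-5p. The platelet miR-126 differed by 1.17 (SE 0.47, adjusted p 0.0663), and the other 3 platelet miRNAs were detected on at most 2 arrays. The erythroid markers had a median difference of -0.28 and opposite signs, 0.23 (SE 0.95) for miR-144 and -0.79 (SE 0.94) for miR-451. The liver miRNA miR-122 was at the floor, 2.53, on both MS arrays. The part of lymphocytes or platelets in the rise of miR-223 was not tested.

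The miRNAs whose levels ran most like miR-223 over the 24 arrays were miR-210 (r = 0.83), miR-128 (r = 0.82), miR-103 (r = 0.82), miR-488 (r = 0.81) and miR-872 (r = 0.81), among 131 other miRNAs detected on every array. Over the 12 group means their r was 0.80, 0.82, 0.83, 0.83 and 0.84, and over the 16 arrays of slides 2 and 3 it was 0.71, 0.85, 0.76, 0.81 and 0.47. The least alike were miR-362* (r = -0.75), miR-652* (r = -0.67) and miR-342-5p (r = -0.66). miR-210 is the miRNA known to rise in low oxygen, and miR-342-5p is the other strand of the lymphocyte marker miR-342-3p. The lymphocyte markers were divided here too: r was 0.81 for miR-181d and 0.75 for miR-181c. It was -0.59 for miR-342-3p, -0.58 for miR-150, -0.53 for miR-181a and -0.52 for miR-181b. The points share groups, slides and the scaling factor of their array, so these values are a description. The median r over the 131 miRNAs was 0.36 after scaling and 0.89 before it.

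**Figure D5:**
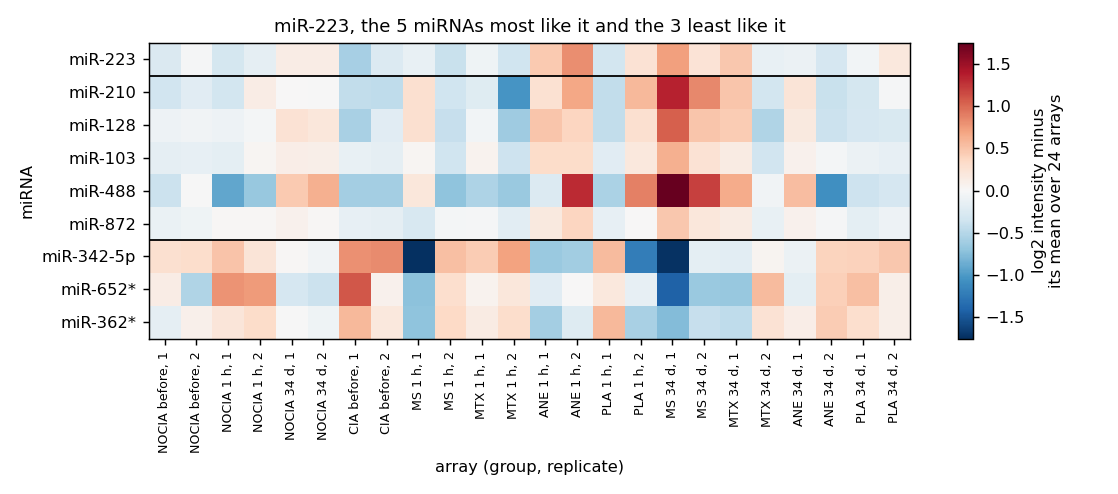
Levels of miR-223, the 5 miRNAs most like it and the 3 least like it on each of the 24 arrays, as scaled log2 intensity minus the miRNA's mean over all arrays (red above, blue below). The upper 6 miRNAs are above their means on replicate 1 of MS at 34 days, and the lower 3 are below theirs on it.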

How the data were processed

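Arrays were grouped by the sample labels, with 2 arrays per group. Per the labels, PBMC were isolated on a density gradient, and total RNA was labelled with Cy3. The authors deposited scanner files with linear intensity values from Agilent Feature Extraction 10.7.3.1, background-corrected and not normalised between arrays. They also deposited a table of log2 values whose normalisation is not stated; their processing notes name RMA, and the study used limma. Total intensity per miRNA was scaled to a common 75th percentile (the geometric mean over arrays) over the 132 miRNAs detected on all 24 arrays, with factors from 0.452 to 1.42. A floor of 5.76 was set and log2 taken. limma 3.58.1 in R 4.3.3 was run on the 210 miRNAs that at least 3 arrays had detected, with 12 group means, 12 residual degrees of freedom and no covariate. Two-sided p-values were given the Benjamini-Hochberg adjustment across these 210, and a call had an adjusted p under 0.05. The fit was tested on simulated data. Healthy and arthritic arrays were compared by exact permutation within slides. The miRNA, its marker lists and the comparisons were chosen with earlier results of these data known. The named miRNAs were miR-223, the list members, and the 5 most and 3 least correlated with it. The array has no miRNA named miR-155 or miR-486, and miR-182 was detected on 0 arrays. Alternatives were other scalings, signals, filters, floors, samples, thresholds, the replicate number as a block and each array left out. The mean spot signal was replaced by the processed one, and normexp was run on the median signal, since the files hold no mean signal; these, each slide alone and the differences between arms in their change over time were chosen after seeing the data. The number of arrays limits the precision. Sequences and positions are from RefSeq, build GRCr8; the arrays' headers name another build, rn4.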

Additional observations from a re-analysis of the deposited data

Results flagged for a closer look

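In 2 pairs of arms miR-223 moved in opposite directions from 1 hour to 34 days on every array, and the difference between the changes was tested in the same limma fit, for all 10 pairs of arms. The change in MS exceeded that in ANE by 1.59 (SE 0.35, unadjusted p 0.000525). Its adjusted p over the 210 miRNAs was 0.110, and 0 of them passed with limma, with 59 at an unadjusted p under 0.05. The change in ANE was below that in NOCIA by a difference of -1.21 (SE 0.35, unadjusted p 0.00428, adjusted p 0.15), where 3 of 210 (1.43%) passed. The change in MTX exceeded that in ANE by 1.22 (SE 0.35, unadjusted p 0.00395, adjusted p 0.104), where 3 of 210 (1.43%) passed. The change in ANE differed from that in PLA by -0.95 (SE 0.35, unadjusted p 0.0180, adjusted p 0.315), where 2 of 210 (0.952%) passed. In the pairs without ANE the smallest unadjusted p was 0.0916. The pairs given here share the ANE arrays. ANE at 1 hour lay on slide 1 and ANE at 34 days on slide 2. MS, MTX and PLA ran from slide 3 to slide 1 and NOCIA from slide 3 to slide 2, so slides cannot be told apart from these changes.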

How the results depend on the processing

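Of the 550 values of miR-223 under the alternatives, 510 kept their direction and their side of the threshold, 10 lost the call, 5 gained it and 25 changed sign; no value that had been called changed sign. The cause of the changes was not tested.

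The difference between MS at 34 days and CIA before therapy (0.89 as reported) lost its call at 0.70 when scaled to the 75th percentile over all miRNAs (adjusted p 0.182), at 0.82 when scaled to the median (0.0559) or to the sum (0.0652), and at 0.66 after quantile normalization (0.0956). It stayed at 0.89 but lost the call with all 677 miRNAs tested (adjusted p 0.131) and with the compared arrays alone (0.174), both of which change what enters the adjustment or the spread. It also lost the call when the study's threshold was set on the values scaled here, since its fold was under 2. With single arrays left out it ranged from 0.65 to 1.14. In the authors' log2 table the difference was 1.21, a fold above 2 (limma unadjusted p 0.00285, adjusted p 0.0382). The count of calls over all miRNAs in this comparison, 40, was 132 without scaling, 7 after quantile normalization, 73 with normexp, 70 in the authors' log2 table and 65 among miRNAs detected on all arrays. It was 0 under the other scalings, with all miRNAs tested (108 at an unadjusted p under 0.05) and with the compared arrays alone (55), and from 0 to 103 with single arrays left out (19 to 118 at an unadjusted p under 0.05).

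The difference between ANE at 1 hour and CIA before therapy passed with probe A_26_P00001510 alone (1.15, adjusted p 0.0364) and passed the study's threshold at 1.06; over the other alternatives that keep all arrays its adjusted p ran up to 0.462. The difference between MS and PLA at 34 days passed without scaling (1.45, adjusted p 0.0312) and was 0.88 with normexp (0.0643) and 0.90 in the authors' table (0.0713). NOCIA at 34 days minus 1 hour was 1.04 (0.114) under the 75th percentile over all miRNAs. A call was also gained by the F test with all miRNAs tested (F 3.39, adjusted p 0.0398). Without replicate 2 of MS at 34 days, MS at 34 days exceeded MS at 1 hour by 0.99 (adjusted p 0.0420); with single arrays left out this difference ranged from 0.50 to 0.99.

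Without scaling, MS minus PLA at 1 hour was 0.23, PLA at 34 days minus PLA at 1 hour was -0.18, and arthritic minus healthy arrays within slides was 0.057; on slide 3 alone the last was 0.062. Under the 75th percentile over all miRNAs, MTX at 1 hour (-0.43), PLA at 1 hour (-0.57) and ANE at 34 days (-0.051) fell on the other side of CIA before therapy, MS and MTX at 1 hour of PLA (0.59 and 0.14), PLA at 1 hour of NOCIA (-0.13), and MTX at 34 days of PLA (-0.069). PLA at 34 days minus PLA at 1 hour was -0.11 after quantile normalization, -0.091 with normexp and -0.079 in the authors' table, but 1.09 (adjusted p 0.0628) under the 75th percentile over all miRNAs; with normexp and in the authors' table MS minus PLA at 1 hour was 0.024 and 0.10. With single arrays left out, signs also changed in NOCIA at 1 hour minus before therapy (-0.21 to 0.024), MS at 1 hour minus CIA (-0.020 to 0.32), PLA minus NOCIA at 1 hour (-0.093 to 0.49), MS minus PLA at 1 hour (-0.52 to 0.059), MTX minus PLA at 1 hour (-0.47 to 0.11), MTX minus PLA at 34 days (-0.21 to 0.40) and PLA at 34 days minus 1 hour (-0.19 to 0.40).

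Over 66 pairs of groups, the correlation between the deviations of same-numbered arrays ran from -0.77 to 0.84 with a median of -0.03. Some pairs of groups thus varied strongly together or in opposition, but the replicate number marked no consistent block. With the replicate number as a block, MS at 34 days differed from CIA before therapy by 0.89 (adjusted p 0.0333), 61 miRNAs were called there, and no other call of miR-223 changed. Every spot of miR-223 was well above background.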
